A study of Mus musculus with 6 samples.

Results

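The genes described here carry the TGF-beta and SMAD signal, a pathway known for holding hematopoietic stem cells (HSCs) in quiescence. They were chosen by name, as the ligand gene Tgfb1, the receptor genes Tgfbr1 and Tgfbr2, the signal transducers Smad2, Smad3 and Smad4, the inhibitor Smad7, and the repressors Ski, Skil and Tgif1. These are 10 of the 49315 genes counted, and all 10 had enough reads to be tested and 10 or more counts in each library. Bulk RNA-seq was done on 6 libraries of sorted mouse bone marrow cells, 3 from WT mice and 3 from ING4-/- mice, which lack the chromatin-binding tumor suppressor ING4. Each genotype gave 1 library of LT-HSCs (CD48- CD34- CD150+), 1 of ST-HSCs (CD48- CD34+ CD150+) and 1 of multipotent progenitors (MPPs, CD48- CD34+ CD150-), all gated as lineage-negative, Sca1+ and cKit+ cells. Marrow of 8 to 10 mice was pooled for the sort, so that no library stands for a single animal. Control mice were 8 to 12 weeks old. The study's methods name C57BL/6 (CD45.2) WT mice and also CD45.1 controls, and its RNA-seq methods say only WT. The age of the ING4-/- donors and the structure of the Ing4 allele are not given in the sources used here. The populations therefore stand in for replicates of a genotype, and p-values measure the spread between sorted populations rather than between animals. Below, 3 values of a genotype always stand in the order LT-HSCs, ST-HSCs, MPPs.

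TGF-beta is secreted in a latent complex and, once freed, binds the type II receptor, which recruits and phosphorylates the type I receptor. The type I receptor phosphorylates SMAD2 and SMAD3, which join SMAD4 and enter the nucleus to raise or lower transcription together with cofactors. SMAD7 blocks the receptor, while SKI, SKIL (also called SnoN) and TGIF1 are bound to SMAD complexes and recruit repressors. In the bone marrow, TGF-beta restrains the division of HSCs, and CDK inhibitor genes such as Cdkn1c are among the genes linked with that restraint.

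Windows upstream of transcription starts were taken from RefSeq for the ligand and receptor genes, since SMAD complexes bind the short core CAGAC and TGIF1 the core TGTCA. They show the bases before the start of the genes that begin the pathway, with matches in capitals, on either strand. Each line is 250 bases on GRCm38.p6, 5′ to 3′ on the gene's strand.
Tgfb1, chr7:25686752-25687001, plus strand: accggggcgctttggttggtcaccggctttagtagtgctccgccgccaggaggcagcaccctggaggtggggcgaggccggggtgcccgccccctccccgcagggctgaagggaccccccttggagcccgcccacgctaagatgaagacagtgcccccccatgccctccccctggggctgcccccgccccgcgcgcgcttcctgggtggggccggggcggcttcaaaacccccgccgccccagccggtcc
Tgfbr1, chr4:47352972-47353221, plus strand: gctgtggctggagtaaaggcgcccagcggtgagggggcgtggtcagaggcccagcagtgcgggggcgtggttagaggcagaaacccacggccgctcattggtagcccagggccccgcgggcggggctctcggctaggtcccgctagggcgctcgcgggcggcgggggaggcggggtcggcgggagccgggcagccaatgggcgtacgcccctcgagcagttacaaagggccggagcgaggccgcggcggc
Tgfbr2, chr9:116175364-116175613, minus strand: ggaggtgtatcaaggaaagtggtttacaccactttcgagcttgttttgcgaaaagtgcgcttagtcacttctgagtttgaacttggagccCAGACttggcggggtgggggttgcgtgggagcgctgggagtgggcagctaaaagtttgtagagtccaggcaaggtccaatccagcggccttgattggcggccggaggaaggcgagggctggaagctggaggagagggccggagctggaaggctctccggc
The Tgfbr2 window held 1 CAGAC, and the windows of Tgfb1 and Tgfbr1 shown held neither core. Tgfbr1 has a second listed start farther into the gene, whose window (chr4:47385966-47386215, not shown) held 1 CAGAC and 1 TGTCA. Among 32851 such windows of mouse genes, 42.2% held CAGAC, 39.95% held TGTCA and 0.167% held the palindrome GTCTAGAC, which none of the windows shown held. A match describes letters in a window and not a bound site.

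Total counts were 7839326 to 9363442 in the WT libraries and 35596876 to 39192588 in the ING4-/- libraries. The libraries also differed in background, which was read from the 1702 genes of olfactory and vomeronasal receptors, whose products belong to sensory neurons. These genes had 18.3 to 23.0 counts per kb of exon in WT and at most 0.0811 in ING4-/-, so that background spread in proportion to exon length would make up 22.9% to 33.8% of the WT counts and at most 0.0267% of the ING4-/- counts. Genotype, depth and background moved together and cannot be told apart, and the counts that the background density corresponds to at a gene's length are given below beside its WT counts. Ing4 itself had 247, 162 and 247 counts in WT (background 121, 122 and 97.5) and 0, 24 and 76 in ING4-/-, and 34.9% of its exonic bases are shared with another gene. Of the 5 genes of the sort, Kit, Cd34, Ly6a and Slamf1 had counts in all 6 libraries. Cd48, against which every population was gated, stood at 5.27, 16.6 and 36.9 CPM in WT and at 0, 34.1 and 127 in ING4-/-. The summed CPM of 5 HSC markers was 767 to 1042 in WT and 989 to 1794 in ING4-/-. All 3 B cell markers were at 0 in every ING4-/- library, the 3 T cell markers were at 0 or nearly so, and in WT both lists summed to 28.6 to 44.2 CPM, where the background alone corresponds to 16.5 to 35.3. The erythroid and granulocyte lists were higher in ING4-/-. The 4 erythroid markers summed to 26.6, 16.1 and 8.34 CPM in WT (background 11.8, 12.3 and 8.91) and 105, 140 and 27.9 in ING4-/-. The 5 granulocyte markers summed to 26.7, 44.7 and 178 in WT (background 12.2 to 16.8) and 69.3, 173 and 313 in ING4-/-. The macrophage and stroma lists were lower in ING4-/-. Macrophage markers (4 genes) summed to 26.0 to 35.9 CPM in WT (background 18.7 to 25.8) and 0.032 to 11.4 in ING4-/-. Stroma markers (3 genes) summed to 42.0 to 67.2 CPM in WT (background 39.2 to 53.8) and 0.949 to 1.89 in ING4-/-. The part of these cells in the results below was not tested.

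None of the 10 genes was called in ING4-/- against WT by the quasi-likelihood test of edgeR (Benjamini-Hochberg adjusted p below 0.05 over all genes, log2 fold change beyond 1 in either direction), while 64.6% of the 31001 genes tested were called, 7.98% higher and 56.7% lower (66.4% had an adjusted p below 0.05 at any fold). A fit of only the 9673 genes with 10 or more counts in each library, which include all 10, called 18% of them. Of the 10 genes it called Tgfbr1 alone. Only Tgfbr1 had an unadjusted p under 0.05, and DESeq2's test called 2 of the 10, Tgfbr1 and Skil. The log2 fold changes ran from -1.31 for Tgfbr1 to 1.18 for Smad7, with a median of 0.26 over the 10 genes. The median was -6.85 over all genes tested, most of which had almost no reads in ING4-/-, and 0.52 over the 9673 genes with 10 or more counts in each library. DESeq2's size factors moved the median of all genes to -7.17 and upper-quartile scaling to -6.35, so that log2 fold changes close to 0 have no fixed direction. In a bulk sample a lower value may come from less RNA per cell or from fewer cells that make it, which cannot be told apart.

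**Figure D1:**
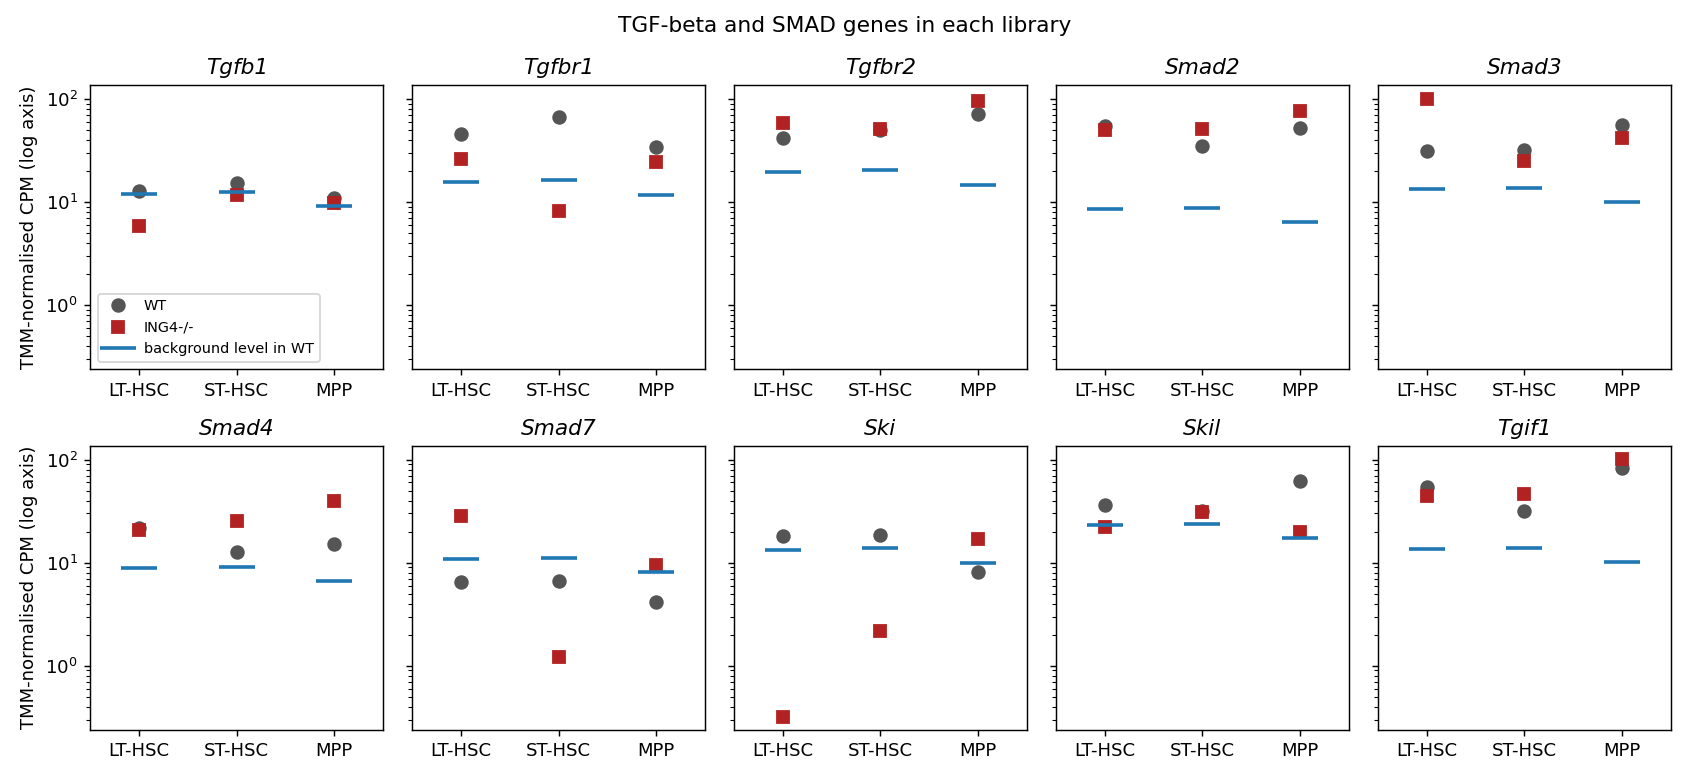
TMM-normalised CPM (log axis) of the 10 genes in LT-HSCs, ST-HSCs and MPPs, 1 point per library, WT as grey circles and ING4-/- as red squares, with blue bars at the CPM to which the receptor-gene background corresponds in the WT library. The WT points of Tgfb1 lie near the bars and those of Smad7 below them, and Ski in ING4-/- spans 0.32 to 16.8 CPM.

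Tgfb1, the gene of the ligand (chromosome 7, 25687002 to 25705077 on GRCm38), had 120, 141 and 110 counts in WT and 182, 372 and 328 in ING4-/-. As CPM (counts scaled by library size and TMM factors) these were 12.6, 15.2 and 10.8 in WT and 5.82, 11.8 and 9.67 in ING4-/-. The ING4-/- value was below WT in each population, and the ranges of the genotypes overlapped. The means were 12.9 ± 2.20 (SD, n = 3 populations) and 9.08 ± 3.02 (SD, n = 3), and the log2 fold change was -0.50 (95% interval -1.78 to 0.78, edgeR adjusted p = 0.452). Background alone corresponds to 114, 116 and 92.4 of the WT counts, or 82.1% to 95.3% of them, so that WT expression of Tgfb1 could hardly be told from background at this depth. With the background subtracted the direction turned, to a log2 fold change of 1.57 that was not called, and with upper-quartile scaling it was 0.090. Megakaryocytes and platelets are known to hold much TGF-beta, and the 5 markers of these cells summed to 201, 327 and 174 CPM in the WT libraries and to 399, 1056 and 271 in ING4-/-, in the same order of populations. The highest marker sum and the highest Tgfb1 level of each genotype were both in ST-HSCs, and their part in the Tgfb1 values was not tested.

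The receptor genes differed from each other in their values. Tgfbr1, which encodes the type I receptor kinase (chromosome 4, 47353222 to 47414931), had 429, 615 and 346 counts in WT and 815, 259 and 820 in ING4-/-. Its CPM was 45.2, 66.2 and 33.9 in WT and 26.0, 8.19 and 24.2 in ING4-/-, so that every ING4-/- library lay below every WT library. It was 1 of 2 genes of the 10 whose groups did not overlap, as 74.9% of all genes tested did not. The log2 fold change was -1.31 (95% interval -2.60 to -0.03, edgeR adjusted p = 0.0684), which missed the threshold. It was called at adjusted p = 0.0330 with DESeq2's size factors, 0.0179 with DESeq2's test, 0.0445 among genes with 10 or more counts in each library 0.0471 among protein-coding genes and 0.0457 without the ING4-/- LT-HSC library. Over 18 other settings its direction did not turn, and its adjusted p ran from 0.0179 to 0.361. Background corresponds to 24.4% to 34.6% of its WT counts, and with background subtracted the log2 fold change was -1.64 (edgeR adjusted p = 0.0744). The ST-HSC libraries were farthest apart, at a log2 ratio of -3.00 against -0.79 in LT-HSCs and -0.49 in MPPs, each from 1 library per genotype.

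Tgfbr2, the gene of the type II receptor that binds the ligand (chromosome 9, 116084293 to 116175360), had 392, 458 and 727 counts in WT and 1842, 1623 and 3243 in ING4-/-. The CPM was 41.3, 49.3 and 71.3 in WT and 58.9, 51.3 and 95.6 in ING4-/-. MPPs had the highest level in both genotypes, and the genotypes overlapped. The log2 fold change was 0.35 (95% interval -0.51 to 1.20, adjusted p = 0.439 from edgeR), close to the 0.52 of genes with counts in every library, and with DESeq2's size factors it was -0.00018, so that no direction held across scalings. Background corresponds to 186, 188 and 150.0 of its WT counts, or 20.6% to 47.4%. Short stretches of Tgfbr2 transcripts match 28 other genes at 95% identity or more, the longest over 171 of its 8187 exonic bases. The other 9 genes had no such match of 100 bases or more.

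Among the receptor-activated transducers, Smad2 had the highest mean level per kb in both genotypes. It lies on chromosome 18 from 76241580 to 76305731. Its counts were 516, 326 and 528 in WT and 1546, 1624 and 2567 in ING4-/-, which are 54.3, 35.1 and 51.8 CPM and 49.4, 51.4 and 75.7 CPM. The genotypes overlapped, the log2 fold change was 0.32 (95% interval -0.45 to 1.09, adjusted p = 0.427 from edgeR), and with DESeq2's size factors it was -0.040. Background corresponds to 12.3% to 25.0% of its WT counts.

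Smad3, the other receptor-activated transducer (chromosome 9, 63646767 to 63757994), stood out in 1 library. It had 295, 294 and 572 counts in WT and 3094, 795 and 1410 in ING4-/-, or 31.1, 31.7 and 56.1 CPM in WT and 98.9, 25.1 and 41.6 CPM in ING4-/-. The ING4-/- LT-HSC library was above all WT libraries, the ST-HSC library was below them and the MPP library lay within their range. The log2 ratio of ING4-/- to WT was 1.67, -0.33 and -0.43 in the 3 populations. Background corresponds to 126, 127 and 102 of the WT counts. Over the 3 populations the log2 fold change was 0.48 (95% interval -0.85 to 1.80, adjusted p = 0.490 from edgeR). Without the ING4-/- LT-HSC library it was -0.22, and without both LT-HSC libraries it was -0.36.

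Smad4, the partner shared by all receptor-activated SMADs (chromosome 18, 73639009 to 73703780), had 205, 118 and 156 counts in WT and 646, 795 and 1353 in ING4-/-. The CPM was 21.6, 12.7 and 15.3 in WT and 20.6, 25.1 and 39.9 in ING4-/-. The ING4-/- LT-HSC value lay within the WT range and the other ING4-/- values above it. Background corresponds to 41.1%, 72.2% and 43.6% of the WT counts. Over the genotypes it differed by a log2 fold change of 0.79 (95% interval -0.34 to 1.92, adjusted p = 0.189 from edgeR). It was positive under all 18 other settings and called under 1 of them, upper-quartile scaling, at 1.37 (adjusted p = 0.0332).

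Smad7, the inhibitory SMAD that TGF-beta signaling itself induces (chromosome 18, 75367529 to 75395935), was the lowest of the 10 genes in WT. It had 62, 62 and 42 counts in WT, which is fewer than the 103, 104 and 82.8 that the background density corresponds to at its length. In ING4-/- it had 894, 38 and 321 counts. The CPM was 6.53, 6.67 and 4.12 in WT and 28.6, 1.20 and 9.46 in ING4-/-, so that the LT-HSC and MPP libraries were above all WT libraries and the ST-HSC library below all of them. The ING4-/- LT-HSC level was 23.8 times the ST-HSC level (95% interval from counting error, exact binomial, 17.2 to 33.8), from 1 library each, and 2.39% of the 9673 genes with 10 or more counts in each library had a wider range in ING4-/-. Its log2 fold change was 1.18 (95% interval -1.27 to 3.63, adjusted p = 0.358 from edgeR). With background subtracted no WT counts were left, and Smad7 was then called higher (adjusted p = 0.0139), with a fitted log2 fold change of 10.98 that depends on the prior count and is no estimate of size. Without the ING4-/- LT-HSC library the log2 fold change was -0.087, and without both LT-HSC libraries 0.024.

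**Figure D2:**
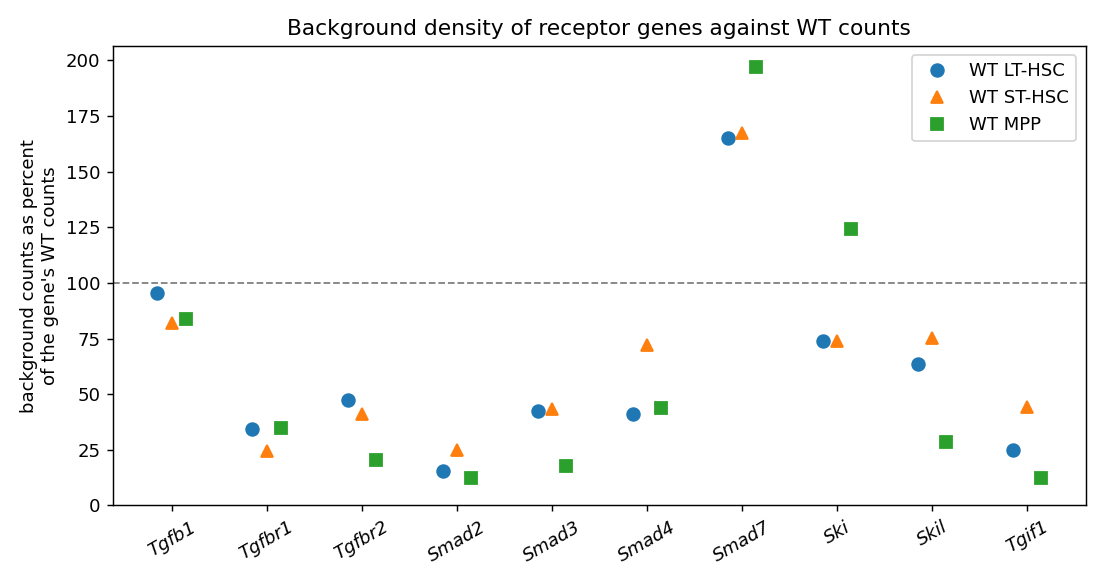
Counts that the receptor-gene background density corresponds to at each gene's exonic length, as a percent of the gene's counts in WT LT-HSCs (circles), ST-HSCs (triangles) and MPPs (squares), with a dashed line at 100 percent. Smad7 lies above the line in all 3 libraries and Ski in MPPs, while Smad2 lies between 12.3% and 25.0%.

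The repressors Ski and Skil are related genes whose products bind SMAD2, SMAD3 and SMAD4. Ski (chromosome 4, 155154075 to 155222592) had 171, 173 and 82 counts in WT and 10, 68 and 571 in ING4-/-. The CPM was 18.0, 18.6 and 8.05 in WT and 0.32, 2.15 and 16.8 in ING4-/-. Within ING4-/- the MPP level was 52.7 times the LT-HSC level (95% interval from counting error, 28.4 to 110), and 0.786% of the 9673 genes had a wider range there. In the stem cell populations the ING4-/- libraries were below all WT libraries, at log2 ratios of -5.45 in LT-HSCs and -3.06 in ST-HSCs, while in MPPs the ratio was 1.06. The log2 fold change over the 3 populations was -1.21 (95% interval -4.21 to 1.79, adjusted p = 0.440 from edgeR). It was -4.07 and called among the LT-HSC and ST-HSC libraries alone (adjusted p = 0.0311, n = 2 and 2 in edgeR), and -3.56 and called without the ING4-/- MPP library (adjusted p = 0.0220). The test of whether the ING4-/- effect in MPPs differed from that in HSCs gave a log2 difference of 4.95 for Ski (95% interval -0.20 to 10.10, edgeR adjusted p = 1.00). Background corresponds to 73.8% of the WT counts in LT-HSCs and in ST-HSCs and to 124% in MPPs, and with background subtracted the log2 fold change was 0.12 (adjusted p = 0.965).

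Skil (chromosome 3, 31095058 to 31122577), which encodes SnoN, had 345, 295 and 627 counts in WT and 699, 970 and 671 in ING4-/-. The CPM was 36.3, 31.8 and 61.5 in WT and 22.3, 30.7 and 19.8 in ING4-/-. Every ING4-/- library lay below every WT library, with 30.7 against 31.8 CPM at the closest. The log2 fold change was -0.83 (95% interval -1.82 to 0.15, adjusted p = 0.119 from edgeR). Skil was called at -1.15 by DESeq2's test (adjusted p = 0.00725) and at -1.17 with DESeq2's size factors (adjusted p = 0.0332) and among protein-coding genes (adjusted p = 0.0494), and over 18 settings its adjusted p ran from 0.00725 to 0.655 with no change of direction. Background corresponds to 63.7% and 75.4% of the WT counts in LT-HSCs and ST-HSCs and to 28.3% in MPPs, where the log2 ratio was -1.63. With the trend on exonic length removed among genes with 10 or more counts in each library, the log2 fold change was -0.39, and Skil has the longest exonic sequence of the 10, 9694 bases.

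Tgif1, a homeodomain repressor that binds SMAD2 and SMAD3 (chromosome 17, 70844205 to 70853546), had 513, 293 and 843 counts in WT and 1393, 1465 and 3470 in ING4-/-. The CPM was 54.0, 31.5 and 82.7 in WT and 44.5, 46.3 and 102 in ING4-/-. MPPs were highest in both genotypes, and the genotypes overlapped. Background corresponds to 24.9%, 44.1% and 12.2% of the WT counts. The log2 fold change was 0.20 (95% interval -0.96 to 1.36, adjusted p = 0.749 from edgeR), the closest to 0 of the 10, and with DESeq2's size factors it was -0.14.

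**Figure D3:**
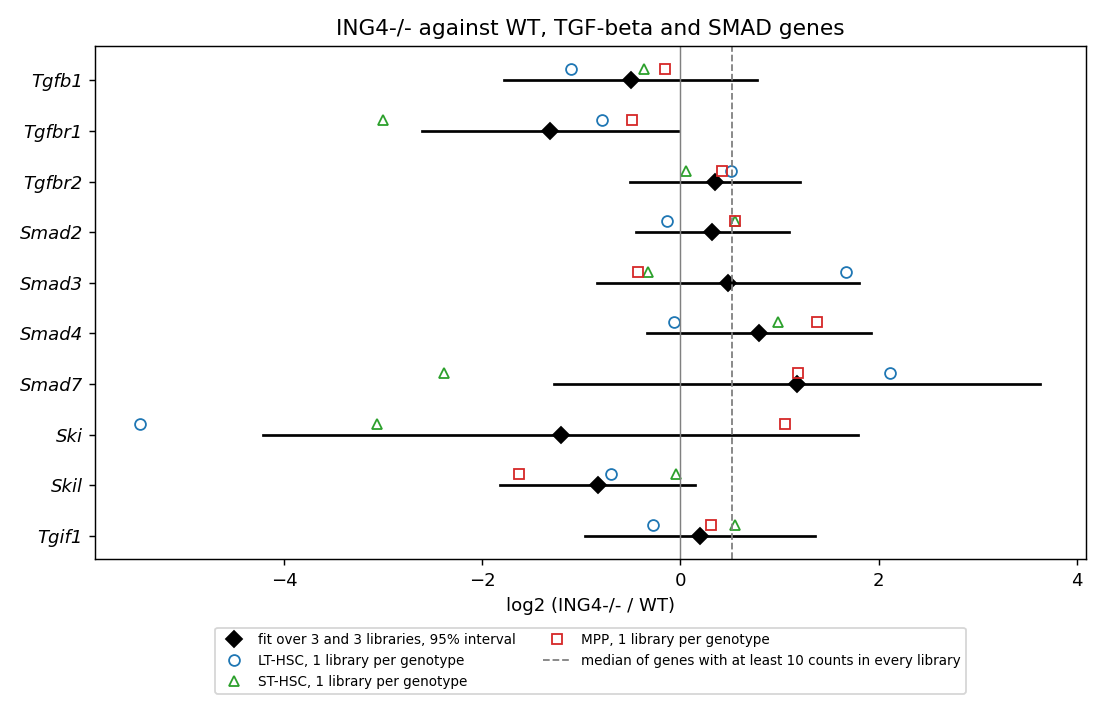
Log2 fold change of ING4-/- against WT for each of the 10 genes (black diamonds, edgeR fit over 3 and 3 libraries, bars 95% intervals), with the log2 ratio in LT-HSCs, ST-HSCs and MPPs from 1 library per genotype as open symbols. The dashed line marks the median of 0.52 over genes with 10 or more counts in each library, and all intervals but that of Tgfbr1 hold 0.

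Per kb of exon, the order of mean levels in WT was Smad2, Tgif1, Tgfbr1, Smad3, Tgfbr2, Skil, Smad4, Ski, Tgfb1 and Smad7, from 13.3 to 1.28 CPM per kb. The ranges of neighbours over the 3 populations overlapped except between Smad4 and Ski and between Tgfb1 and Smad7. In ING4-/- the order was Smad2, Tgif1, Smad3, Tgfbr2, Smad4, Tgfbr1, Smad7, Skil, Tgfb1 and Ski, from 16.6 to 1.16 CPM per kb. There the only neighbours whose ranges did not overlap were Smad4 and Tgfbr1. Smad4 stood above Tgfbr1 in ING4-/-, at 7.69 against 2.98 CPM per kb, and below it in WT, at 4.45 against 7.41. If background is in proportion to length, it adds the same amount per kb to every gene of a WT library. This density is assumed and is no floor, as Smad7 had fewer WT counts than it corresponds to.

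From LT-HSCs to MPPs, none of the 10 genes was called in an edgeR fit with genotype and population as terms, and the share called over all 31001 genes was 0%, with 561 genes and none of the 10 at an unadjusted p under 0.05. DESeq2's test called 473 genes and none of the 10. Tgif1 came closest to the threshold, with a log2 difference of MPPs over LT-HSCs of 0.89 (95% interval -0.14 to 1.92, edgeR adjusted p = 1.00), followed by Tgfbr2 with 0.74 (95% interval -0.19 to 1.68). Both were higher in the MPP than in the LT-HSC library of each genotype. Ski had the widest interval, from -3.77 to 9.01 around 2.62, since its order of populations differed between the genotypes, with MPPs lowest in WT and highest in ING4-/-.

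The difference of the ING4-/- effect between MPPs and HSCs passed for none of the 10 genes in edgeR, and for 0% of all genes, with 1437 genes and none of the 10 at an unadjusted p under 0.05. DESeq2's test called 623 genes and none of the 10. Apart from Ski, the differences ran from -1.42 for Smad3 to 1.21 for Tgfbr1. The intervals were wide, at -4.79 to 1.96 for Smad3 and -2.09 to 4.51 for Tgfbr1.

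The rest of the pathway was described with 6 further lists that hold 73 genes, of which 69 could be tested. In ING4-/-, 6 of them were called higher and 20 lower, beside 7.98% and 56.7% of all genes, and their median log2 fold change was -0.29 beside -6.85 over all genes. With population as a replicate block, 4 of the listed genes were called higher and 17 lower, and their median lay farther below 0. Among the genes named below, the calls of Smad6, Cited2, Smurf1 and Cdkn1a were lost with that block (edgeR adjusted p = 0.299, 0.0905, 0.0613 and 0.102). No ING4-/- library held more than 3 counts for 10 of the 20 called lower in the reported fit, beside 15806 of the 17566 genes called lower over all genes. Where each library was required to hold 10 counts, and 8.3% of genes were called higher and 9.68% lower, 39 listed genes remained, with 1 called higher, 7 lower and a median of -0.24.

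**Figure D4:**
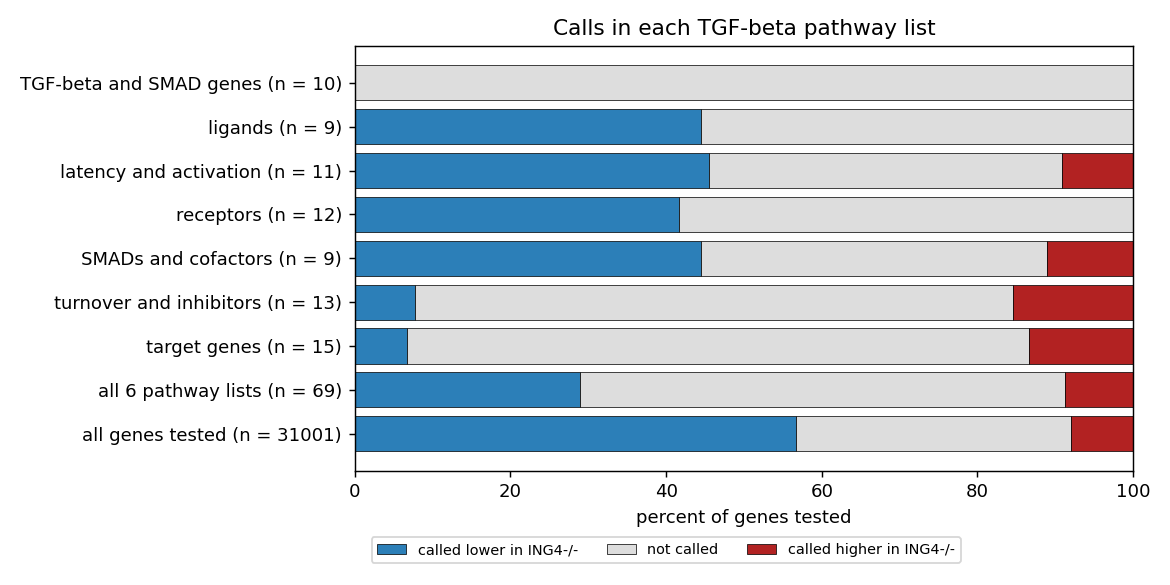
Share of the tested genes of each list that were called lower (blue), not called (grey) or called higher (red) in ING4-/- against WT, with the number tested in parentheses. All 10 TGF-beta and SMAD genes are grey, and 20 of the 69 other pathway genes are blue and 6 are red. Of all genes, 56.7% are blue, most of them with at most 3 counts in each ING4-/- library.

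Among the other ligand genes, 4 of 9 tested were called lower and none higher, with a median of -1.23. None of these ligand genes had 10 or more counts in each library, and the median ran from -3.2 to -1.27 when libraries were left out. Tgfb2 had 135, 175 and 168 counts in WT, where background corresponds to 131, 133 and 106, and 0 in every ING4-/- library. With each ING4-/- library set at 3 counts, mean WT CPM including background was at least 177-fold higher, which is a bound on reads and not on expression. Bmp2 also had 0 counts in every ING4-/- library, with 41 to 59 counts in WT that are below the background of 65.1 to 81.6. Its bound of 56.8-fold, found in the same way, therefore holds for background reads. With background subtracted it had too few counts to be tested. Bmp6 had 175, 94 and 51 counts in WT (background 54.6, 55.3 and 44.2) and 0, 0 and 1 in ING4-/-.

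Of the 11 genes that hold TGF-beta latent or free it, 5 were called lower and 1 higher, with a median of -1.37. When libraries were left out, 4 to 7 were called lower and the median ran from -4.31 to -0.84. The gene called higher was Nrros, which encodes an anchor of latent TGF-beta on the surface of blood cells. It had 1994, 1556 and 2750 counts in WT, where background corresponds to 76.5 to 95.9, and 14741, 10171 and 24063 in ING4-/-, or 216 ± 51.4 and 501 ± 196 CPM (SD, n = 3 each), which is a log2 difference of 1.21 ± 0.33 (SE, edgeR adjusted p = 0.0127). It was not called under 8 of 18 other settings, among them DESeq2's test (0.88), background subtracted (0.47) and without the ING4-/- MPP library (0.90), with no change of direction. The calls in the other direction with the smallest adjusted p were Ltbp1, Ltbp2 and Itgb8, a pair of latent TGF-beta binding proteins and an integrin subunit that frees TGF-beta. Itgb8 and Ltbp2 had 0 counts in every ING4-/- library and Ltbp1 had 0, 2 and 0, against 399 to 520 in WT with a background of 192 to 241. In WT, Itgb8 had 271 to 352 counts where background corresponds to 203 to 254, and Ltbp2 had 77 to 108 counts where it corresponds to 150 to 188.

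Among 12 other receptor genes, 5 were called lower and none higher, with a median of -1.67. That median ran from -2.71 to -1.39 when libraries were left out. With the filter of 10 counts in each library 5 genes remained, with 1 called lower, none higher and a median of -0.089. Acvr1c, Bmpr1a and Bmpr1b, type I receptors for activins and BMPs, had 0 counts in all ING4-/- libraries, and were at least 440-fold, 153-fold and 130-fold lower there. Their WT counts hold much background. Bmpr1a had 137, 115 and 163 counts where background corresponds to 144, 146 and 116, Bmpr1b had 92, 153 and 102 where it corresponds to 135, 137 and 109, and Acvr1c had 406, 421 and 353 where it corresponds to 211, 213 and 170. Eng, a TGF-beta co-receptor also known as CD105 and chosen after its value was seen, had an adjusted p of 0.0383 and a log2 fold change of 0.90, short of the fold threshold.

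Of 9 SMADs and cofactors tested, 4 were called lower and 1 higher, with a median of -1.06. Smad6, the inhibitory SMAD of BMP signaling, was called higher at 1.75 (adjusted p = 0.0476 from edgeR), with 17, 5 and 22 counts in WT, below its background of 58.7 to 73.6, and 201, 157 and 126 in ING4-/-. This call held under 3 of 18 other settings and was lost with DESeq2's test (adjusted p = 0.0521) and without any 1 of 5 libraries, the exception being the ING4-/- MPP library. Zfyve9, which encodes the SMAD anchor SARA, had 329, 343 and 433 counts in WT (background 118 to 148) and 4, 3 and 10 in ING4-/-. Trim33, a SMAD4 antagonist known in blood cell differentiation, had a log2 fold change of -2.01 (adjusted p = 0.00883 from edgeR). It was not called under 2 of 18 other settings, without both ST-HSC libraries (-1.87, edgeR adjusted p = 0.0808) and with the 10-count filter and length trend removed (-1.60, edgeR adjusted p = 0.0709). Ncor1, a corepressor, had a log2 fold change of -1.67 (adjusted p = 0.0216 from edgeR). It was not called under 4 of 18 other settings, among them upper-quartile scaling (-1.09), the length trend removed (-0.93) and without the WT ST-HSC library (-1.61, adjusted p = 0.0540). Ncor1 had 799, 1037 and 926 counts in WT, where background corresponds to 290.5, 294 and 235, and 356, 1023 and 1563 in ING4-/-. Trim33 had 491, 480 and 432 counts in WT, where background corresponds to 222, 225 and 180, and 202, 333 and 649 in ING4-/-.

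Of 13 genes of turnover and inhibition, 2 were called higher and 1 lower, with a median of -0.26. The sign of that median was not fixed, as it ran from -0.50 to 0.20 when libraries were left out. Fkbp1a, whose product FKBP12 holds the type I receptor inactive, had 1717, 1543 and 2464 counts in WT and 15781, 14877 and 13912 in ING4-/-, or 1.23 ± 0.20 on the log2 scale (SE, edgeR adjusted p = 0.00119). Strap, whose product binds the receptors and SMAD7, stood at 1.43 ± 0.26 on that scale (SE, edgeR adjusted p = 0.00183). Neither passed the fold threshold when each library was required to hold 10 counts, at 0.74 for Fkbp1a and 0.93 for Strap, or with background subtracted, at 0.49 and 0.70, and Fkbp1a did not with DESeq2's test (0.91). Smurf1, a ubiquitin ligase for SMADs, was called lower, with 140, 86 and 91 counts in WT, below its background of 144, 145 and 116, and 0, 25 and 0 in ING4-/-. This call was lost without any 1 WT library (adjusted p = 0.0726 to 0.0793).

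Of 15 target genes tested, 2 were called higher and 1 lower, with a median of 0.69. The median ran from -0.073 to 0.88 when libraries were left out and was 0.30 with the filter of 10 counts in each library. Cited2, a transcriptional coregulator needed by HSCs, had 15, 69 and 46 counts in WT, where background corresponds to 44.6, 45.2 and 36.1, and 1335, 734 and 533 in ING4-/-, a log2 fold change of 2.59 (adjusted p = 0.0179 from edgeR). It was not called under 8 of 18 other settings, among them without the WT LT-HSC library (2.14, adjusted p = 0.0553), without the WT MPP library (2.47, adjusted p = 0.0772) and with background subtracted (3.66, adjusted p = 0.0863). The other gene called higher was Cdkn1c, at 3.23 (edgeR adjusted p = 0.00174), with 1295, 1361 and 638 counts in ING4-/-. It was called higher under all 18 other settings. An antisense gene overlaps 30.7% of its exonic bases, and its WT counts of 28 to 47 are close to its background of 37.4 to 46.8. Cdkn1a, another CDK inhibitor gene, was called lower at -1.40 (adjusted p = 0.0340), a call that did not hold under 8 of 18 other settings, among them leaving out the LT-HSC or MPP library of WT or the ST-HSC or MPP library of ING4-/- (adjusted p = 0.0666 to 0.118), so that the 2 CDK inhibitors tested were called in opposite directions. Myc, which TGF-beta represses in many cells and which was chosen here after its value was seen, had an adjusted p of 0.00463 and a log2 fold change of 0.87. Id1, Id2 and Id3 were not called, at 0.93, -0.061 and -0.17. Cdkn2b, a CDK inhibitor gene that TGF-beta induces in other tissues, had too few counts to be tested.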

How the data were processed

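RNA of 3 sorted populations of WT and ING4-/- marrow (LT-HSCs, ST-HSCs, MPPs) was sequenced as 1 library per population and genotype. The deposited values are raw counts per gene, made from the reads for the authors by a sequencing company, and the submitters' processing notes name mm10. The aligner, the counter, its strand setting and the annotation are not given in the sources used here. Of 49315 gene IDs, 49056 were found in the GENCODE vM21 annotation (GRCm38), from which symbols and exonic lengths were taken. Total counts differed several-fold between the genotypes and WT libraries carried more background, so that low WT values are the least precise.

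Counts were fitted with edgeR 4.0.16 in R 4.3.3 (TMM scaling, filterByExpr, quasi-likelihood test, Benjamini-Hochberg adjustment over all genes tested), with genotype as the only term and the 3 populations as its replicates, after the comparison in the study's methods. Calls needed an adjusted p below 0.05 and a log2 fold change beyond 1 in either direction. The background of a gene was its exonic length times the mean count density of 1702 olfactory and vomeronasal receptor genes. Intervals from counting cover counting error only, as do floors, which were set at 3 counts per library. DESeq2 1.42.0, other scalings and filters, background subtraction and leaving out libraries were tried as alternatives. In simulated data the genotype test recovered 200 of 200 genes given a known change among 30746, with 7 false calls, the difference between MPPs and HSCs 132 of 200 and the MPP to LT-HSC test 197 of 200, both among 30741 genes. Populations paired the libraries: deviations from the genotype means correlated at 0.157, 0.127 and 0.131 in the 3 populations (LT-HSCs first, MPPs last) over 9673 genes.

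The 10 genes and the pathway lists were chosen with earlier results of these data known. From each list, the 3 genes with the smallest adjusted p called higher and the 3 called lower were named, together with Ing4, Cdkn1c and, for each of the 10 genes, the nearest gene by level across libraries. Motifs CAGAC, GTCTAGAC and TGTCA were searched on both strands of windows of 250 bases upstream of RefSeq starts (GRCm38.p6), where 6 of the 10 genes had an entry.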

Additional observations from a re-analysis of the deposited data

How the results depend on the processing

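No direction held across scalings for Tgfbr2, Smad2 and Tgif1. With DESeq2's size factors, DESeq2's test, the filter of 10 counts in each library and protein-coding genes only, the log2 fold change was -0.040, -0.022, -0.19 and -0.026 for Smad2 and -0.14, -0.12, -0.29 and -0.14 for Tgif1, and that of Tgfbr2 was -0.00018 and -0.15 with the first and the third of these. Among the LT-HSC and ST-HSC libraries alone it was -0.0021 for Smad2 and -0.088 for Tgif1, and with the length trend removed -0.32 for Smad2. With upper-quartile scaling Tgfb1 stood at 0.090, and with background subtracted (a setting whose WT values rest on the assumed density) Tgfb1 stood at 1.57, Smad2 at -0.23, Ski at 0.12 and Tgif1 at -0.22. The cause was not tested.

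Of the 10 genes, 2 were called lower with DESeq2's size factors, with DESeq2's test and among protein-coding genes, 1 was with the filter of 10 counts and 1 without MPPs, and 1 was called higher with upper-quartile scaling and 1 with background subtracted, with medians of -0.091, -0.073, -0.082, -0.24, 0.84 and -0.16 for DESeq2's size factors, DESeq2's test, protein-coding genes, the filter, upper-quartile scaling and the filter with the length trend removed. Over all genes, 56.7% were called lower in the reported fit and 9.68% with the filter of 10 counts. Leaving out libraries gave the 10 genes 0 calls higher, 0 to 1 lower and medians of -0.15 to 0.42. Without single libraries or populations, log2 fold changes ran from -0.84 to -0.24 for Tgfb1, -1.87 to -0.65 for Tgfbr1, 0.054 to 0.54 for Tgfbr2, -0.0021 to 0.59 for Smad2, -0.36 to 0.85 for Smad3, 0.24 to 1.25 for Smad4, -0.087 to 1.85 for Smad7, -4.07 to -0.45 for Ski, -1.21 to -0.54 for Skil and -0.28 to 0.46 for Tgif1. The population as a replicate block called none of the 10 (Tgfbr1 -1.39, adjusted p = 0.143; Ski -2.80, adjusted p = 0.299, edgeR) and changed no other call among them.

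Over all genes, calls higher numbered 1342 with DESeq2's size factors, 4556 with upper-quartile scaling, 1562 with DESeq2's test, 803 with the filter of 10 counts, 1148 among protein-coding genes, 1110 with background subtracted, 388 with the filter and length trend and 1625 without MPPs, and 1540 to 2804 without a library or population. Calls lower numbered 936 with the filter, 7489 among protein-coding genes, 7578 with background subtracted and 489 with the length trend removed, and 18002 to 20940 in the leave-outs. Medians were -7.17, -6.35, -6.44, 0.020, -1.28, -0.91, 0.030 and -7.67 in the order of the calls higher, -5.96 without a filter, -7.40 with the block and -7.67 to -7.25 in the leave-outs. For the 6 pathway lists, calls higher were 3, 14, 3, 1, 3 and 2 with DESeq2's size factors, upper-quartile scaling, DESeq2's test, the filter, protein-coding genes and the length trend, and 3 without MPPs, calls lower were 7, 12 and 1 with the filter, background subtracted and the length trend, and the block gave 4 higher, 17 lower and a median of -1.35. The leave-outs gave 3 to 7 higher, 16 to 23 lower and medians of -0.96 to -0.10. The difference between MPPs and HSCs was negative with background subtracted for Tgfbr2 (-0.21), Smad7 (-0.70) and Tgif1 (-0.014) and with upper-quartile scaling for Smad7 (-0.017). DESeq2's test called 623 genes for that difference and 473 for MPPs against LT-HSCs, where the filter gave 2. At WT depth, 3 counts correspond to up to 0.383 CPM.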

Other observations

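Each of the 10 genes was set beside the gene outside the group whose level, as log2(CPM + 1) centred on its mean, lay closest over the 6 libraries, among 9663 genes with 10 or more counts in each library. With so few libraries such likeness is a description only. Smad2 had the closest neighbour, Rbck1, at a Euclidean distance of 0.0960, followed by Tgif1 with Tbc1d9b at 0.193. The ligand gene Tgfb1 lay closest to Aste1 (0.255), and the receptor genes lay closest to the adhesion molecule gene Alcam for Tgfbr1 (0.489) and to Mrgpre for Tgfbr2 (0.273). Smad3 lay closest to Afap1l1 (0.321), Smad4 to Actr10 (0.311), Smad7 to Sertad2 (0.320) and Skil to Nbr1 (0.340). Ski, whose ING4-/- libraries spread most, had the farthest neighbour, Cic, at 0.710.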
